A study of Mus musculus with 1037 samples.

Results

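The 10 genes described here belong to the YAP/TAZ pathway of the mouse. They are the coactivators *Yap1* and *Wwtr1*, the DNA-binding partners *Tead1* and *Tead3*, the target genes *Ccn1*, *Ccn2* and *Ankrd1*, and the regulators *Amotl2*, *Lats2* and *Ajuba*. The rule names them and uses no measured value, though it was written with earlier results of these data known. They are 10 of the 55335 genes in the table of estimated counts. All 10 were found by Ensembl identifier.

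The counts come from single cells of the hair follicle, sorted into wells and made into Smart-seq2 libraries, which read full-length transcripts and carry no molecular identifiers. The donors were wild-type mice, and cells of several animals per stage were pooled before sorting. Cells at AnaVI, late growth phase at postnatal day 15, came as 3 sorts. LOS is labelled lower outer root sheath (ORS), while UOS and MOS both carry the label upper-middle ORS. Cells at CatVI, in regression at day 17, came from the upper ORS as plates titled P17f, a code whose letter f is not explained. Plates pl1 and pl2 are titled Phago and alive, pl5 Phago and apop, and pl6 NonPhago and apop. Cells at CatVII, late regression at day 18, came from the upper ORS as OSalive and OSapop. The study's sort scheme kept CD34+ Itga6+ cells negative for Sca1 and for CD31, CD117, CD140a and CD45, and took alive cells as negative for annexin V, which binds dying cells. Dermal and epidermal fractions of the skin were separated mechanically and digested with different enzymes.

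No animal is named, so each sort is 1 sample. No sort has a replicate and no p-value can be given. Intervals are 95% intervals of counting error only: they treat amplified reads as separate molecules and leave out the spread between animals. Stage, plate and library cannot be told apart, nor can stage and labelled region between UOS or MOS and the catagen sorts. Summed counts also cannot separate fewer cells with RNA from less RNA per cell, and shares of cells are therefore given as well.

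YAP and TAZ (the product of *Wwtr1*) are coactivators that shuttle between cytoplasm and nucleus. When the Hippo kinases MST1/2 and LATS1/2 are active, YAP and TAZ are phosphorylated and held back. On stiff matrix, under tension or after loss of junctions they enter the nucleus, bind TEAD factors and switch on genes such as *Ccn1* and *Ccn2*, which encode secreted matricellular proteins. In skin epithelium the pathway is known for its part in proliferation and repair. RNA levels of *Yap1* or *Wwtr1* say nothing of where their proteins are.

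Because TEAD factors recognise the letters GGAATG, the promoter windows of RefSeq (GRCm38.p6, from 250 bases before the start of transcription to 50 after it) were searched for GGAATG on both strands. A window was at hand for 8 members, and all 8 held GGAATG in at least 1 window, against 16.6% of all 27025 genes with a window. The AP-1 motif TGANTCA, which AP-1 factors such as FOS and JUN bind, stood in none of the 8, against 8.97% of genes, and the CArG box of SRF in none, against 1.81%. *Ccn2* and *Tead1* had no entry. A match is a run of letters and not a shown binding site. The windows of 4 members are printed to show where the letters lie in *Ccn1*, in 2 regulators that are themselves known targets, and in *Ankrd1*, the member without a count. Capitals mark GGAATG or its reverse complement CATTCC, and sequences run 5′ to 3′ along the gene's strand. The first letter of a match lies at −103 from the start in *Ccn1*, at −65 in *Amotl2*, at −186 and −164 in *Ajuba*, and at −210 and −123 in *Ankrd1*.

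Ccn1 (chr3:145649936-145650235, minus strand): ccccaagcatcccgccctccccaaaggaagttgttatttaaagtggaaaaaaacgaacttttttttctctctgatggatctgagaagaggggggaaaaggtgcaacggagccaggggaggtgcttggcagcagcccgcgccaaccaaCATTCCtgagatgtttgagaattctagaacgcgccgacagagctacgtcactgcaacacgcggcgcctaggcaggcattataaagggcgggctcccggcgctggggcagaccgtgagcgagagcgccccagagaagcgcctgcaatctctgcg
Amotl2 (chr9:102717554-102717853, plus strand): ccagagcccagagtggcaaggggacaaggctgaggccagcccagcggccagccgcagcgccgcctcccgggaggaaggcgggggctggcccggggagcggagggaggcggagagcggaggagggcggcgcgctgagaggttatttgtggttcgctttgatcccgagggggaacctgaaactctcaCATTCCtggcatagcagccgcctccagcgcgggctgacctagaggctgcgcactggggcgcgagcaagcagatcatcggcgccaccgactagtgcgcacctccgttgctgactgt
Ajuba (chr14:54577612-54577911, minus strand): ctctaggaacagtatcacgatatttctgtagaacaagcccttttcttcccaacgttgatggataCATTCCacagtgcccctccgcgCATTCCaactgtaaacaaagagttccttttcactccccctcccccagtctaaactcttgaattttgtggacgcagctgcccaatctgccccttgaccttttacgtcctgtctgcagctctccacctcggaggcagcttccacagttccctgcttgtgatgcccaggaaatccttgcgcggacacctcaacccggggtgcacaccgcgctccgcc
Ankrd1 (chr19:36119795-36120094, minus strand): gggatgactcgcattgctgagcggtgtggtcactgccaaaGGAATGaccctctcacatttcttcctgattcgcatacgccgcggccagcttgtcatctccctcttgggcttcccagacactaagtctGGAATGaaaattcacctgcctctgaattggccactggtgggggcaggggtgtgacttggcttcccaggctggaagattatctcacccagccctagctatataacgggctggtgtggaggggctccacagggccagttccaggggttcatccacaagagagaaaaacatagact

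Cells with 2000 or more detected genes were used, 463 in 9 sorts. They were 39 cells of LOS, 38 of MOS, 19 of pl1, 9 of pl2, 15 of pl5, 14 of pl6 and 92 of OSapop, and the rest came from UOS and OSalive, where 83.6% and 80.1% of cells passed. A sort held between 1840012 (pl6) and 287377663 (OSalive) gene counts, and median counts per cell ran from 90483 in pl6 to 2182590 in OSalive. Identifiers absent from the annotation took 71.3% to 80.7% of the counts. Among passing cells, 46 of UOS, 100 of OSalive and 52 of OSapop share a well label with another cell of their sort under another library number, and were kept as separate cells. All 9 epithelial markers (*Krt5*, *Krt14*, *Itga6* and others) had counts in every sort. The 7 bulge markers, of hair follicle stem cells, summed to between 285.3 (pl2) and 1623 (OSapop) CPM (counts per 1000000 gene counts). The LOS sort also held 1545 CPM of the 8 fibroblast markers, led by *Col3a1*, 287.7 CPM of the 4 muscle and mural markers, led by *Rgs5*, and 181.96 CPM of the 6 melanocyte markers, so that a part of its counts goes against its label.

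*Ccn1* and *Ccn2* set the CatVII cells apart from the CatVI cells, and no other member differed as much. *Ccn1* (chromosome 3 of GRCm39, 145352720 to 145355738) stood at 104.9 CPM in OSalive and 47.7 CPM in OSapop. At AnaVI it stood at 13.4 CPM in UOS, 10.54 CPM in LOS and 2.34 CPM in MOS. At CatVI, 2 counts were found in 1 cell of pl2 (0.883 CPM), and pl1, pl5 and pl6 had none. Both CatVII sorts therefore lay above every AnaVI sort, and every AnaVI sort lay above pl1 and pl5, whose intervals ended at 0.673 and 0.821 CPM. The intervals of UOS and LOS overlapped.

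*Ccn2* (chromosome 10, 24471333 to 24474900) followed a similar order. It stood at 92.5 CPM in OSalive and 72.95 CPM in OSapop. The AnaVI sorts had 23.4 CPM in UOS, 13.2 CPM in MOS and 3.45 CPM in LOS. Again 2 counts in 1 cell of pl2 were all that the 57 CatVI cells held, and this was another cell than the one with *Ccn1*. No neighbours from OSalive down to LOS overlapped in their intervals.

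*Ankrd1*, a cardiac ankyrin repeat gene and a standard YAP target in culture, had no count in any sort. In OSalive, the deepest sort, the upper limit of the share of cells with a count was 2.91% (Clopper-Pearson), which does not limit the share that express the gene, and 3 counts would have been 0.0104 CPM. The remaining members of the CCN family were low: the highest value was 9.89 CPM for *Ccn3* in LOS, and *Ccn6* had no count.

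**Figure D1:**
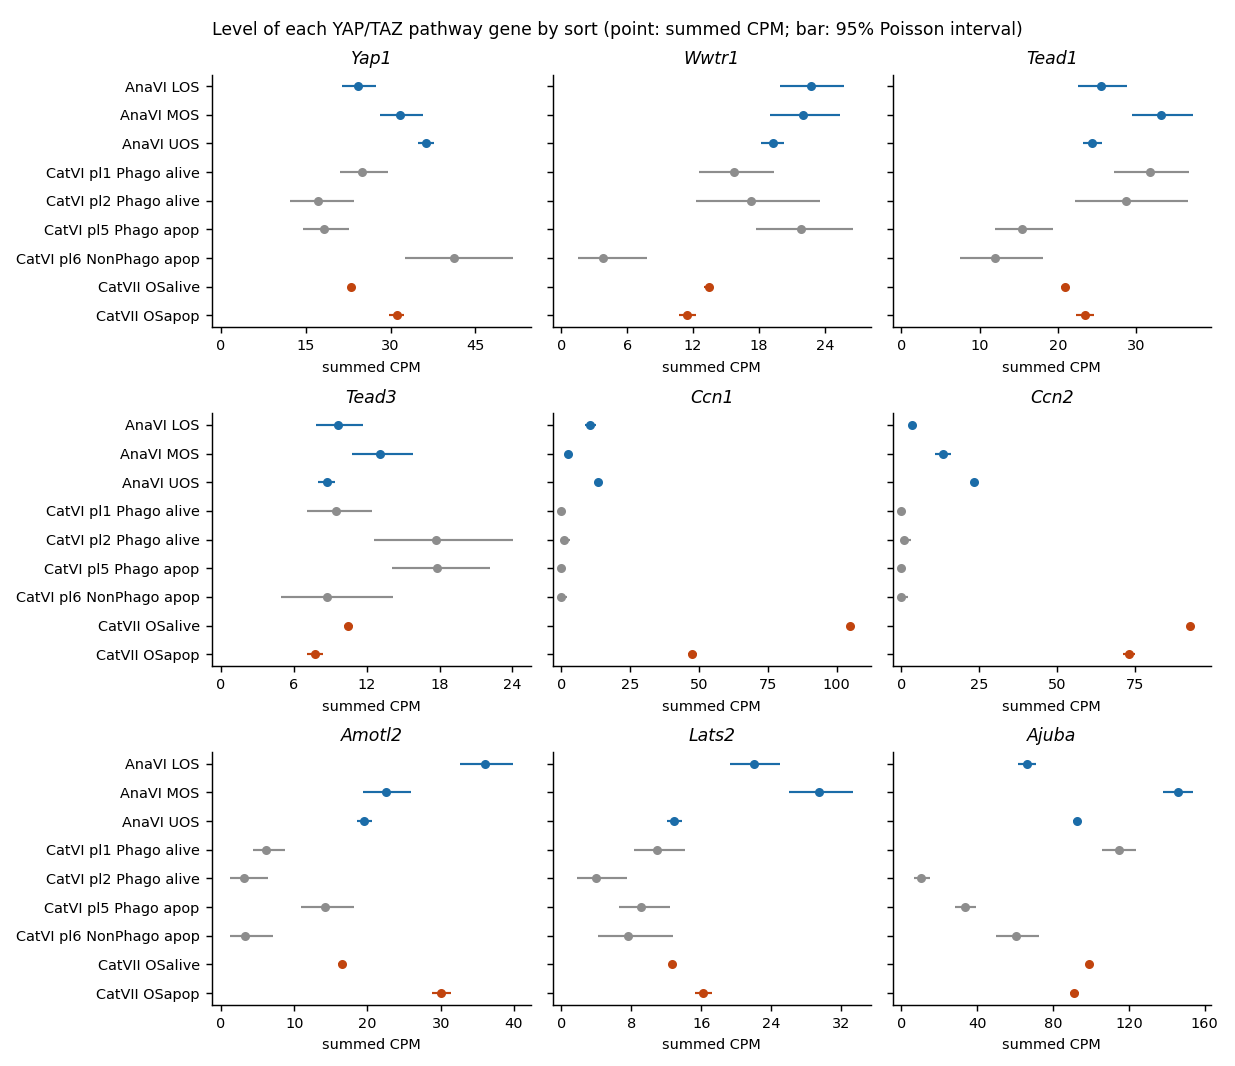
Summed CPM of 9 members in each sort, with 95% Poisson intervals; blue marks AnaVI, grey the CatVI plates and orange CatVII, and each panel starts at 0. *Ccn1* and *Ccn2* are near 0 on all 4 CatVI plates and highest in OSalive (104.9 and 92.5 CPM), while *Yap1* stays between 17.2 and 41.3 CPM.

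The differences were also present as shares of cells at equal depth. When each cell was thinned to 50000 counts, *Ccn1* had a count in 50.2% of CatVII cells (Clopper-Pearson interval 43.3 to 57.2%), in 16.3% of AnaVI cells (11 to 22.8%) and in 0 of 53 CatVI cells (upper limit 6.72%). *Ccn2* had a count in 62.2% (55.3 to 68.8%), 23.5% (17.3 to 30.7%) and again 0 of 53. Without thinning, *Ccn1* was found in 58.99% of CatVII cells, 26.5% of AnaVI cells and 1.75% of CatVI cells. The 3 stages were thus in the same order for both genes, with intervals that did not overlap. These intervals count cells and not animals, and AnaVI pools LOS, MOS and UOS, which differed. Without thinning, a count of either gene was found in 53.6% of UOS cells, 36.8% of MOS and 25.6% of LOS. In OSalive it was 84.8%.

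Levels within a sort were spread widely. In OSalive the middle cell had 8.204 CPM of *Ccn1* and the highest 2326 CPM, and this cell gave 13.9% of the counts. In UOS 1 cell gave 36.9% of the *Ccn1* counts, and without it the level was 8.63 CPM. For *Ccn2* the highest cell of UOS gave 17.9% of the counts. In OSalive 57 cells had both genes, 14 only *Ccn1*, 35 only *Ccn2* and 19 neither, and in OSapop 43 of 92 cells had both.

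**Figure D2:**
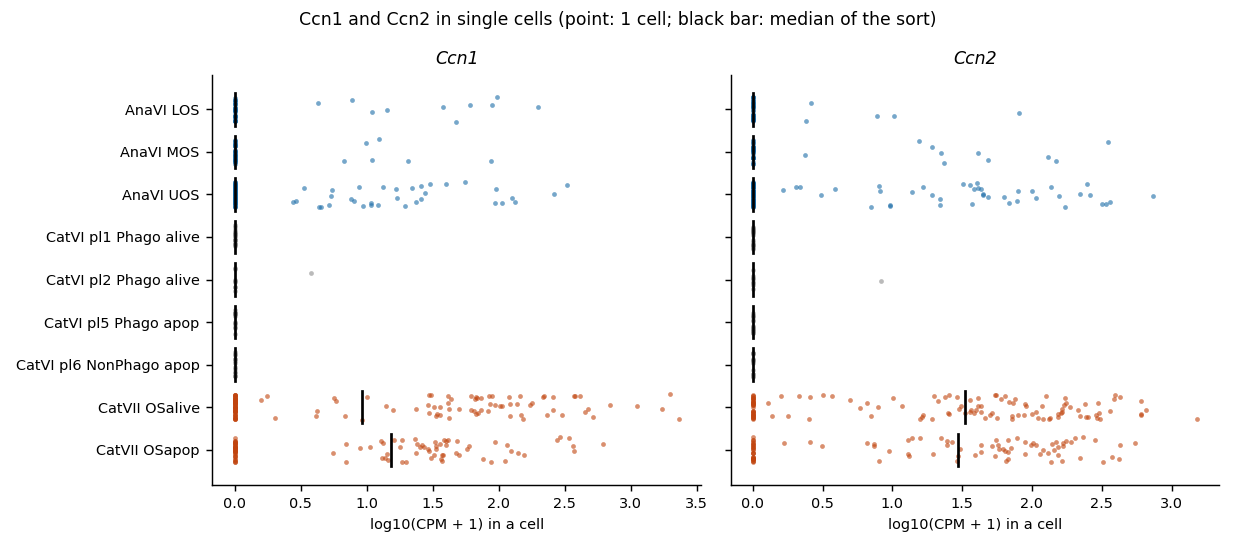
*Ccn1* and *Ccn2* in single cells, as log10(CPM + 1) on the horizontal axis, 1 point a cell and a black bar at the median of each sort. Only the CatVII sorts have medians above 0, and 1 CatVI cell has *Ccn1* and another *Ccn2*.

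The genes that encode the coactivators and their partners varied far less between stages. *Yap1* (chromosome 9) stood at 36.2 CPM in UOS, 31.7 in MOS and 24.3 in LOS. At CatVI it stood at 24.98 CPM in pl1, 17.2 in pl2, 18.2 in pl5 and 41.3 in pl6. At CatVII it stood at 22.9 CPM in OSalive and 31.1 in OSapop. The CatVI plates alone thus spanned the whole range of the 9 sorts. In the order of levels, a gap between the intervals of neighbours lay only between OSapop and pl1.

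*Wwtr1*, which encodes TAZ, ran from 22.7 CPM in LOS to 3.80 CPM in pl6, where 7 counts were found in 3 cells. From LOS down to OSalive at 13.4 CPM, no neighbours in the order were apart beyond their intervals. *Tead1*, a TEAD factor expressed in most tissues, ran from 33.2 CPM in MOS to 11.96 CPM in pl6. *Tead3* ran from 17.8 CPM in pl5 to 7.72 CPM in OSapop, with overlapping intervals for every neighbouring pair. At 50000 counts per cell *Yap1* was found in 60.2% of AnaVI, 54.7% of CatVI and 55.02% of CatVII cells, with overlapping intervals.

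The genes that restrain YAP/TAZ, or link it to junctions, had their lowest levels on CatVI plates, though not on each of them. *Amotl2*, an angiomotin that binds YAP at junctions and is also a target gene, stood at 36.1 CPM in LOS, 22.5 in MOS and 19.6 in UOS. It stood at 6.20 CPM in pl1, 3.09 in pl2, 14.2 in pl5 and 3.26 in pl6, and at 16.5 in OSalive and 30.1 in OSapop. All 4 CatVI plates had less than every other sort, although the intervals of pl5 and OSalive overlapped. *Lats2*, the Hippo kinase that phosphorylates YAP, ran from 29.5 CPM in MOS to 3.97 CPM in pl2. UOS, OSalive, pl1, pl5 and pl6 followed each other with overlapping intervals.

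*Ajuba*, a LIM protein that binds LATS kinases at tense junctions, was found in most cells. It stood at 145.7 CPM in MOS, 92.6 in UOS and 66.1 in LOS, at 98.8 in OSalive and 91.2 in OSapop, and at 114.5 in pl1, 60.3 in pl6, 33.4 in pl5 and 10.2 in pl2. The plates pl1 and pl2, which share every label but the plate, thus lay near opposite ends of the order. Plate pl2 also held 175.3 CPM of the 6 melanocyte markers, against 2.01 CPM in pl1, while pl1 held 55.4 CPM of the 5 endothelial markers, against 0.883 CPM in pl2. Plate pl2 had the least of the epithelial markers (1263 CPM). The part of these in the *Ajuba* difference was not tested. At equal depth 45.3% of CatVI cells had *Ajuba* (31.6 to 59.6%), against 89.2% at AnaVI and 90.4% at CatVII. *Amotl2* was found in 15.1% of CatVI cells (6.75 to 27.6%), against 40.96% and 38.3%. *Lats2* was not lower at CatVI in this measure. It was found in 37.7% of CatVI cells (24.8 to 52.1%), against 36.1% at AnaVI and 28.2% at CatVII.

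**Figure D3:**
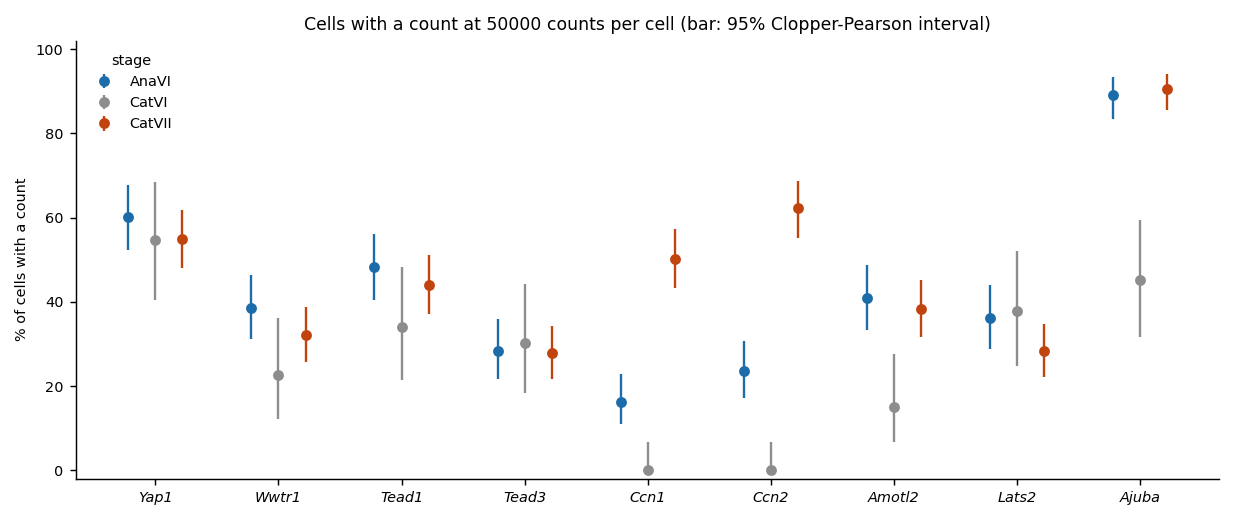
Percent of cells with a count of each member after thinning to 50000 counts per cell, by stage, with 95% Clopper-Pearson intervals. CatVI (grey) is at 0 of 53 cells for *Ccn1* and *Ccn2* and below both other stages for *Amotl2* and *Ajuba*.

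Per kilobase of the canonical transcript, which allows levels of different genes to be set side by side, *Ajuba* was highest in UOS at 27.2 CPM per kb. *Yap1* had 8.66, *Ccn2* 8.56 and *Ccn1* 6.60 CPM per kb there, while *Wwtr1* had 4.09 and *Tead1* 2.45. In OSalive *Ccn1* led with 51.6 CPM per kb, before *Ccn2* with 33.9 and *Ajuba* with 29.1, and *Yap1* had 5.48. *Yap1* was above *Wwtr1* in this scale in 8 of 9 sorts, all but pl5.

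The comparison of OSalive with UOS set CatVII cells titled alive, from the upper ORS, beside AnaVI cells labelled upper-middle ORS. Stage and labelled region therefore differ together. *Ccn1* was 7.82-fold higher (log2 ratio of CPM 2.97, interval 2.87 to 3.06) and *Ccn2* 3.96-fold higher (1.99, 1.91 to 2.06). *Yap1* was lower by a log2 ratio of −0.66 (−0.73 to −0.59) and *Wwtr1* of −0.52 (−0.61 to −0.43). The other 5 members with counts lay between −0.25 for *Amotl2* and 0.27 for *Tead3*. As a description, a gene with 100 or more counts was called at a 2-fold difference. Of the 9 members with that many, 2 were called higher, against 11.5% of 14159 genes, and 0 were called lower, against 26.6%. The median log2 ratio of all genes was −0.32 and moved to 0.13 with median-of-ratios scaling, and *Yap1* and *Wwtr1* lay at −0.34 and −0.20 relative to the median gene. With that scaling *Tead1* (0.23), *Amotl2* (0.21) and *Lats2* (0.43) turned from below to above 0, so their direction was not settled. *Wwtr1* was at 0.02 after thinning, and *Ajuba* at −0.23 in cells without a fibroblast count. The ratio of *Ccn1* exceeded that of 97.1% of genes and that of *Ccn2* 94.6%.

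The comparison of the 4 CatVI plates, summed, with UOS addressed mid catagen, with the same difference in labelled region. *Ccn1* had 2 counts against 917 in UOS, a log2 ratio of −6.56 (−9.61 to −4.71), and *Ccn2* 2 against 1596, a log2 ratio of −7.36 (−10.41 to −5.51). *Amotl2* was lower by −1.31 (−1.60 to −1.03). *Tead3* was at 0.62 (0.37 to 0.86), the highest of the members, *Yap1* at −0.61 and *Tead1* at −0.06, with an interval that held 0. Thus 3 of 9 members were called lower, against 24.9% of 11497 genes, and 0 higher, against 12.9%. The share of members called lower was near that of all genes, and the size of the CCN ratios was not: 0.174% of genes had a lower ratio than *Ccn1* and 0.0783% than *Ccn2*.

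Between CatVII and CatVI cells that were both titled alive, *Ccn1* differed by a log2 ratio of 8.67 (6.81 to 11.71) and *Ccn2* by 8.49 (6.63 to 11.53), with 2 counts each on pl1 and pl2 together. *Amotl2* was higher in OSalive by 1.64 (1.198 to 2.12), while *Yap1* was at 0.01 (−0.20 to 0.24). Of 9 members 3 were called higher, against 18.2% of genes, and 0 lower, against 27.6%. The spread between like plates was large: in pl2 against pl1, 12.8% of 3791 genes were called higher and 32.5% lower. Of the 4 members with 100 counts there, *Ajuba* was called lower (−3.50, interval −4.16 to −2.90) and 0 higher, whereas *Yap1*, *Wwtr1* and *Tead1* lay between −0.54 and 0.14. Genes of the pathway lists differed more than *Ajuba* between these like plates, with *Fat4* at −5.45 (−10.77 to −2.94) and *Igfbp3* at −5.34 (−7.22 to −3.97). These intervals overlap that of *Ccn1* on the CatVI plates against UOS, and the ratios of OSalive to UOS (2.97 and 1.99) were smaller than the *Ajuba* difference.

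**Figure D4:**
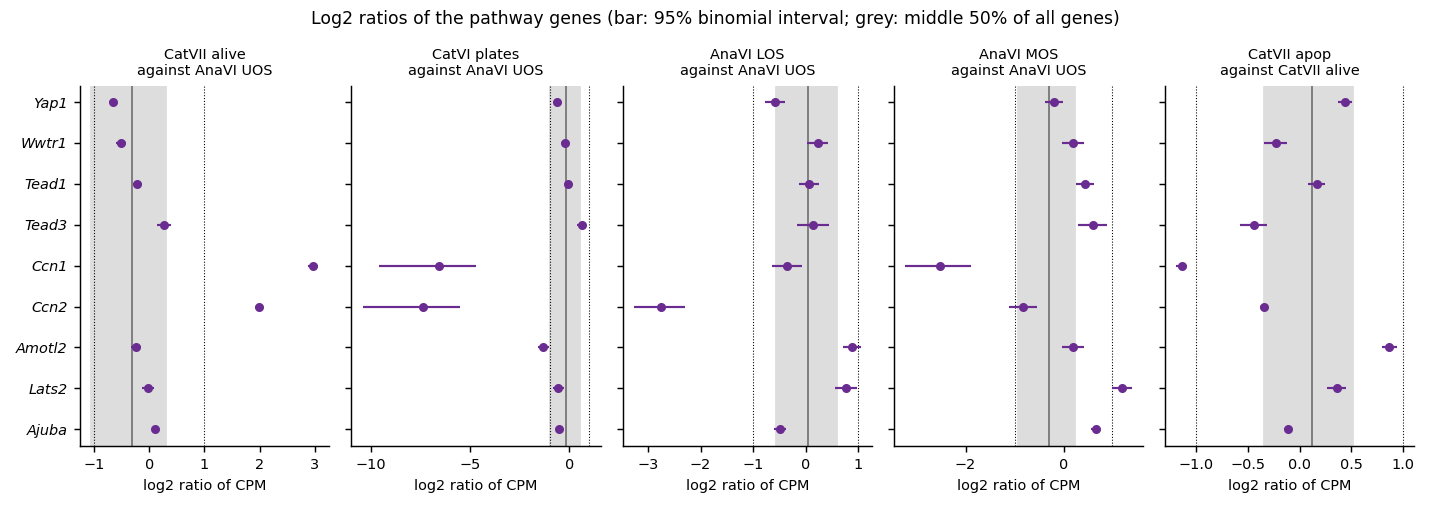
Log2 ratio of CPM of 9 members in 5 comparisons, with 95% binomial intervals. The grey band spans the middle 50% of all genes, the grey line is their median and dotted lines mark 2-fold. *Ccn1* and *Ccn2* lie right of the band in CatVII alive and left of it on the CatVI plates, where most other members lie inside it.

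Within the AnaVI follicle the members were compared by sort. *Ccn2* was lower in LOS than in UOS, by a log2 ratio of −2.76 (−3.27 to −2.29), and *Ccn1* was at −0.35 (−0.64 to −0.06) but turned to 0.78 after thinning. *Amotl2* was at 0.88 (0.72 to 1.05) and *Lats2* at 0.77 (0.56 to 0.98), both below 2-fold. Without cells over 500 CPM of other cell types' markers *Lats2* was at 0.035 and *Amotl2* at 0.64, and as a mean over cells *Amotl2* was at 0.10. The *Ccn2* ratio was −4.65 without the top cell of each sort and −2.35 without the marker-rich cells. In LOS, 1 of 9 members was called lower, against 14.3% of genes, and 0 higher, against 14.1%. In MOS *Ccn1* was lower than in UOS (−2.52, interval −3.24 to −1.88), *Lats2* was higher (1.19, 0.985 to 1.396) and *Ccn2* was at −0.82. In MOS 1 of 9 was called lower, against 23.2% of genes, and 1 higher, against 6.56%. *Ccn1* and *Ccn2* therefore took different orders at AnaVI over all passing cells, since MOS had the least *Ccn1* and LOS the least *Ccn2*. In the 7 LOS cells without a fibroblast count *Ccn1* had 0 counts (upper limit 6.95 CPM). The 26 such cells of MOS stood at 2.83 CPM, so which sort had the least *Ccn1* was not settled. The *Lats2* ratio of MOS was below 2-fold without the top cell of each sort (0.78), after thinning (0.78) and as a mean over cells (0.64).

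In CatVII, OSapop was compared with OSalive. *Ccn1* was lower in OSapop, by a log2 ratio of −1.14 (−1.19 to −1.09), and *Ccn2* was at −0.34 (−0.39 to −0.30), whereas *Amotl2* was at 0.87 (0.79 to 0.94) and *Yap1* at 0.44 (0.37 to 0.51). Of 9 members 1 was called lower, against 11.3% of 13886 genes, and 0 higher, against 10.6%. The share of cells with *Ccn1* at equal depth was 50% in OSalive and 50.6% in OSapop, where 43 of 85 cells had it. Among cells with a count, the median was 68.3 CPM in OSalive and 32.6 CPM in OSapop. The *Ccn1* ratio missed 2-fold when only cells without a fibroblast count were kept (−0.90), where that of *Ccn2* passed it (−1.31), and when cells over 500 CPM of other cell types' markers were left out (−0.99).

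Around the members, genes of the pathway were counted by lists. Some members are also in the lists: *Lats2* is in the kinase core, and *Ccn1*, *Ccn2*, *Ankrd1*, *Amotl2*, *Lats2* and *Ajuba* are in the target signature. In OSalive against UOS, the 13 genes of the Hippo kinase core had a median log2 ratio of −0.32, equal to that of all genes, with 3 called lower, a share near the 26.6% of all genes, and 0 higher. The lowest were *Wwc1* (KIBRA, −2.04) and the adaptor *Sav1* (−1.36), and the highest were *Stk4* (MST1, 0.41) and *Taok3* (0.49). Of 16 junction and scaffold regulators 2 were called higher, the atypical cadherin *Fat4* (1.98) and *Amot* (1.04), and 2 lower, *Wtip* (−2.30) and *Dchs1* (−1.70), against 11.5% and 26.6% of all genes. Both higher genes had their lowest AnaVI level in UOS and more in MOS and LOS than in OSalive. *Fat4* stood at 11.1 CPM in OSalive, 2.81 in UOS, 18.4 in MOS and 30.1 in LOS. *Amot* stood at 5.58, 2.71, 8.43 and 6.25 CPM in the same order. Of 8 coactivators, TEAD factors and VGLL cofactors with 100 counts, 1 was called higher, a share near the 11.5% of all genes. None was called lower, against 26.6%. The 1 called was *Tead4*, at 11.5 CPM in OSalive and 5.62 in UOS (1.03).

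The target signature of 22 genes was spread to both sides of 0. Of 20 genes with 100 counts in OSalive and UOS, 4 were called higher, against 11.5% of all genes, 3 lower, against 26.6%, and 10 lay above 0. Their median was 0.01, against −0.32 for all genes. *Tgfb2*, which encodes a TGFβ ligand, was highest (20.5 against 1.35 CPM, log2 ratio 3.93), followed by *Ccn1*. *F3* (tissue factor, −5.07) and *Gadd45b* (−2.54) were lowest. For the plates of CatVI, 3 of 19 were called higher, against 12.9% of all genes, and 6 lower, against 24.9%, with a median of −0.52 against −0.18. There *Tgfb2* (2.47) and *Asap1* (1.35) were highest, and *Ccn2* and *Ccn1* lowest. *Tgfb2* was thus above UOS at both catagen stages, though at 0 in pl5, and highest in MOS (52.4 CPM), while the CCN genes lay on either side of UOS. The signature's most abundant genes by mean CPM were *Ptpn14*, *Ajuba* and *Crim1*.

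On the CatVI plates 2 of 8 coactivator, TEAD and VGLL genes were called higher and 2 lower, against 12.9% and 24.9% of all genes. *Vgll4*, whose product competes with YAP for TEAD, stood at 137.85 CPM in pl1, 45.04 in pl2, 113.01 in pl5 and 96.2 in pl6, and between 33.005 and 43.9 CPM in the 5 sorts of the other stages. All 4 plates lay above the other sorts, pl2 only narrowly, and the log2 ratio to UOS was 1.32 (1.23 to 1.41). *Tead2* was the other (1.064), while *Tead4* (−1.14) and *Vgll3* (−2.41) were called lower. The kinase core had a median of 0.19, with *Stk3* (MST2, 1.05) and *Taok3* (1.34) the 2 of 13 called higher, a share near that of all genes, and 0 called lower. *Stk3* differed between plates, at 22.1 CPM in pl1, 1.77 in pl2 and 8.45 in pl5, against 5.91 in UOS. Of the 15 junction and scaffold genes *Fat4* (1.44) was called higher, and *Amotl2* and *Kirrel1* (−1.26) lower, both smaller shares than among all genes. By plate, *Fat4* stood at 19.3 CPM in pl1, 0.442 in pl2 and 0 in pl5, against 2.81 in UOS. Its call therefore rested on pl1.

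Genes of serum response factor and actin, which respond to tension as YAP/TAZ does, were counted in the same way. Of 16 measured in OSalive against UOS, 9 were called lower, against 26.6% of all genes, 0 were called higher and 3 lay above 0, with a median of −1.08 against −0.32 for all genes. The lowest were the contractile genes *Tagln* (−7.82) and *Acta2* (−4.85), and the highest was *Srf* itself (0.83). The AnaVI sorts differed in both contractile genes. *Acta2* stood at 17.6 CPM in UOS, 25.8 in LOS and 0.936 in MOS, against 0.612 in OSalive. *Tagln* stood at 5.52, 3.08, 0.351 and 0.0244 CPM in the same order. On the CatVI plates 9 of 15 were called lower, against 24.9% of all genes, 0 were called higher and 4 lay above 0, with a median of −1.37. *Mrtfb* (0.85) and *Tpm1* (0.56) were highest there. The CCN genes and the median of this list therefore had the same sign at CatVI and opposite signs in OSalive.

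Immediate early genes, which respond within minutes to signals and to tissue dissociation, were measured beside the CCN genes, since *Ccn1* is also an immediate early gene. Their summed level was 1723 CPM in OSalive, 1016 in OSapop, 1379 in UOS, 1437 in MOS and 884 in LOS, and between 568 (pl5) and 1085 (pl2) on the CatVI plates. In OSalive 6 of 19 were called higher than in UOS, against 11.5% of all genes, led by *Nr4a1* (109.2 against 32.4 CPM) and *Klf4* (66.9 against 24.1), and 4 lower, against 26.6%, among them *Btg2* and *Ier2*. At CatVI 7 were called lower, against 24.9% of all genes, and 0 higher, with a median of −0.94. In OSapop against OSalive the median was −0.71 and *Nr4a1* was lowest (−1.82). Across the cells of OSalive, Spearman's correlation between the CPM of *Ccn1* and the list was 0.47, and across the 92 cells of OSapop 0.49, while in UOS it was 0.05. For *Ccn2* and the list it was 0.25 in OSalive, 0.08 in OSapop and 0.03 in UOS. The cells of a sort share a pool of mice and a depth range, and these are descriptions. The part of this list in the *Ccn1* levels was not tested.

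**Figure D5:**
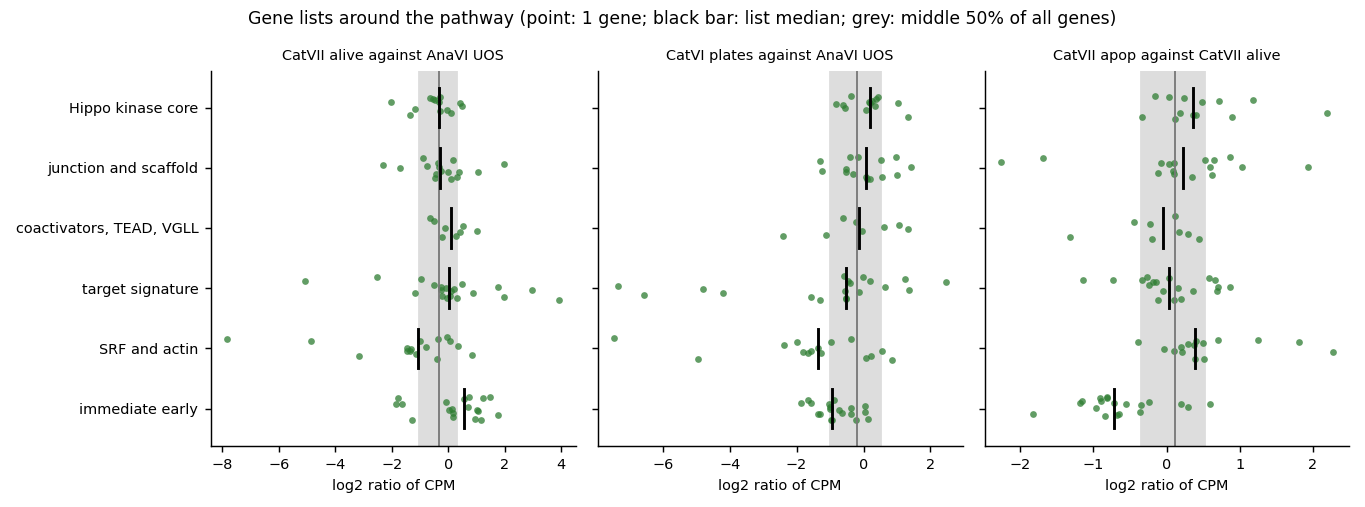
Log2 ratio of CPM of every gene with 100 counts in 6 lists, 1 point a gene and a black bar at the list's median, in 3 comparisons. The grey band spans the middle 50% of all genes. Target genes are spread to both sides, the median of the SRF and actin genes lies left of 0 at both catagen stages (−1.08 and −1.37), and that of the immediate early genes lies right in CatVII alive (0.57) and left on the CatVI plates (−0.94).

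Fibroblasts express CCN genes strongly, and their 8 markers were therefore set beside them. Summed, they stood at 407 CPM in UOS, 258.2 in OSalive, 290 in OSapop and 58.4 in MOS, and between 4.23 (pl5) and 79.04 (pl2) on the CatVI plates, where 3 or 4 of the 8 were at 0. The sort gate against CD140a is meant to remove such cells, and their part in the CCN levels was not tested beyond the values that follow. In cells with no count of a fibroblast marker, *Fbln1* set aside, *Ccn1* stood at 108.7 CPM in 48 cells of OSalive, 58.05 CPM in 38 of OSapop and 23.5 CPM in 65 of UOS, and at 0 in 12 of pl1. *Ccn2* stood at 88.7, 35.9 and 21.3 CPM in the same 3 sorts. The log2 ratio of *Ccn1* between OSalive and UOS was then 2.21 and that of *Ccn2* 2.06. Spearman's correlation between *Ccn2* and the fibroblast markers was 0.41 across the cells of UOS and 0.18 in OSalive.

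Within sorts, *Ccn1* and *Ccn2* varied weakly with each other and with the coactivators. Spearman's correlation of *Ccn1* with *Ccn2* was 0.09 in UOS, 0.23 in OSalive and 0.17 in OSapop. Spearman's correlation of *Ccn1* with *Yap1* was 0.06, −0.04 and 0.02 in the same order, in sparse counts in which a weak value is no finding. Across the 9 sorts, Pearson's r of log2(CPM + 1) was 0.94 between *Ccn1* and *Ccn2*, 0.84 between *Amotl2* and *Lats2*, and 0.12 between *Yap1* and *Ccn1*. *Yap1* and *Tead3* had the lowest r, −0.76. The sorts share stages and differ in depth, and these values are descriptions over 9 points.

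Among 9440 genes with a symbol and a count in 75 or more cells, those most like *Ccn1* over the sorts were *Gprin2* (r = 0.99), *Fam13a* and *Cnksr1*. *Fam13a* stood at 21.8 CPM in OSalive, 11.1 in OSapop and 6.38 in UOS, and at 0.912 CPM or less on the CatVI plates. For *Ccn2* they were *Gm44022*, the cadherin *Pcdh20* and the chemokine scavenger *Ackr4*, which stood at 43.9 CPM in OSalive, 37.96 in OSapop and 17.95 in UOS, and at 1.46 CPM or less on the plates. For *Yap1* they were *B3galt6* and *Inpp5f*, and for *Ajuba* *Sema5a*, *Cyfip1* and *Kdsr*. For *Wwtr1* they were *Sec22b*, *Vps18* and *Tbc1d10a*, for *Tead1* *Cntln*, *Suz12* and *Creb3l1*, and for *Tead3* *Peds1*, *Klf11* and *Snx19*. For *Amotl2* they were *R3hdm2*, *Zfp563* and *Gstt3*, and for *Lats2* *Gemin4*, *Def8* and *Ranbp3*. The highest r for each lay between 0.94 and 0.99. Each is the largest of 9440 values over 9 points and is high by selection. Some of these genes also had low levels, such as *Gm44022*, at 4.11 CPM or less in every sort.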

How the data were processed

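Single-cell RNA was analysed in 1036 cells with a column of counts, of 1037 in the series. The authors trimmed reads, aligned them with STAR 2.6 to mm39, quantified them with Salmon 1.4.0 and summed estimated counts per gene with tximport. The deposited expected counts are not normalised or filtered. They were rounded to whole numbers here, and ERCC spike-ins were set apart. Symbols and lengths came from GENCODE for GRCm39, which held 93.3% of identifiers.

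Members, lists and comparisons were chosen with earlier results of these data known. Genes named are the 10 members and, per list, the 3 of highest CPM, the 2 largest and 2 smallest ratios among those with 100 or more counts in the sorts compared, and, per member, the 3 genes of highest Pearson r. One gene that this rule names is not reported here. Those singled out besides (*Vgll4* by plate, *Tgfb2* in MOS) were chosen after their values were seen.

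Cells with 2000 or more detected genes were summed per sort. CPM has the total gene count as its denominator. A gene at 0 in 1 group of a ratio was set to 3 counts. Depth, given in the report, set the precision: intervals are exact Poisson (CPM), exact binomial (ratios) and Clopper-Pearson (shares). Alternatives concerned scaling, cell weights, filters, thinning, the reference sort and single plates. On simulated counts the ratios had the right sign. Python 3.11.15, numpy 2.4.6, scipy 1.17.1, R 4.3.3 and edgeR 4.0.16 (TMM factors only) were used. A cell with conflicting stage labels was left out of every sort, and the table of cell labels was not used.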

Additional observations from a re-analysis of the deposited data

Results flagged for a closer look

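The difference between cells titled apop and alive had opposite signs at CatVII and CatVI for 3 members, with both intervals away from 0. The log2 ratio of *Wwtr1* was −0.23 in OSapop against OSalive and 0.43 in plate pl5 against pl1 and pl2. For *Tead1* it was 0.16 and −1.01, and for *Tead3* −0.44 and 0.58. Each side is 1 pool of mice, the CatVI plates hold 15 cells against 28, and the difference between stages was not tested. At CatVII, leaving out cells over 500 CPM of other cell types' markers gave −0.17 for *Tead1*, TMM scaling gave −0.01 for it, thinning gave 0.17 for *Tead3*, and the mean over cells gave 0.01 for *Wwtr1*, each the opposite sign.

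Cells with under 2000 detected genes, used in no comparison, also held *Ccn1* and *Ccn2* at CatVII. *Ccn1* stood at 134.2 CPM in 31 such cells of OSalive (29 counts in 7 cells) and at 273.9 CPM in 49 of OSapop (81 counts in 7 cells). *Ccn2* stood at 366 CPM in OSalive (79 counts in 4 cells) and at 196.1 CPM in OSapop (58 counts in 8 cells). In the 22 such cells of UOS, *Ccn1* had 0 counts, with an upper limit of 25.9 CPM, and *Ccn2* had 6. Intervals of the CatVII values lay above those of all 3 AnaVI sorts. Among these cells *Ccn1* was higher in OSapop than in OSalive, with intervals apart, the opposite of the passing cells. *Ccn2* was lower in OSapop, as in the passing cells.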

How the results depend on the processing

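Among the recomputed counts of members past 2-fold, 11 moved by over 1.5 times from the reported count. Of 603 recomputed ratios of single members, none with a main ratio past 2-fold changed sign. Most main ratios were below 2-fold and could not enter that count. Among these, in OSalive against UOS, *Lats2* kept its sign in 7 of 13 alternatives and *Amotl2* in 8 of 13. *Yap1* and *Tead3* kept theirs in 13 of 13. In OSalive against UOS, *Ccn1* lay between 2.21 and 3.42 and *Ccn2* between 1.498 and 2.44 on the log2 scale in 13 of 13 alternatives. On the CatVI plates *Ccn1* lay between −8.13 and −3.54 and *Ccn2* between −8.10 and −5.08 in 17 of 17, leaving out each plate included. *Amotl2* there passed 2-fold in 16 of 17, and missed it (−0.74) in cells without a fibroblast count. Without pl1 the ratio of *Ajuba* to UOS was −1.49, against −0.52 with all plates, and without pl5 −0.22. In LOS the number of members higher was 1 as a mean over cells, and 4 higher and 2 lower in the 7 LOS cells without a fibroblast count. In MOS 0 were higher as a mean over cells, after thinning and without the top cell, and 2 were lower without the top cell or in cells without a fibroblast count. In OSapop 1 was higher and 0 lower without cells over 500 CPM of other markers, and 2 lower in cells without a fibroblast count. The cause of these differences was not tested. The choices that left out cells by markers were added after the data were seen.

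No paired analysis was possible because each sort is 1 sample and no comparison rests on a test. Depth limits the CatVI plates most: 3 counts are 1.63 CPM in pl6 and 0.0104 CPM in OSalive, while over all 57 CatVI cells 3 counts are 0.213 CPM. Median-of-ratios scaling moved the median of all genes by over 0.1 in the comparisons with UOS, to 0.13 in OSalive, −0.34 on the CatVI plates, −0.23 in LOS and −0.14 in MOS.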

Other observations

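The cell titled OSapop but labelled CatVI belongs to no sort. It had 2674 detected genes and 52544 counts, with 9 counts of *Ajuba*, 4 of *Tead1*, 3 of *Ccn2*, 1 each of *Wwtr1* and *Tead3*, and 0 of *Ccn1*, *Yap1*, *Amotl2*, *Lats2* and *Ankrd1*.

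On the CatVI plates with passing cells, the cells under the minimum held 8 counts of *Ccn1*, all in 1 cell of pl2, and 5 counts of *Ccn2*, all in 1 cell of pl6. Plates pl3 and pl4, titled NonPhago and alive, had no cell that passed. They held 1104 and 27556 gene counts in all, with no count of any member, and 3 counts would have been 2717 and 108.9 CPM.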
